A study of Mus musculus with 3 samples.

Results

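Retinoic acid synthesis, binding and response were described here through 10 genes in cultured pigment epithelium of the mouse eye. They are the synthesis genes Aldh1a1, Aldh1a2 and Aldh1a3, the breakdown gene Cyp26b1, the binding protein genes Crabp1 and Crabp2, the receptor genes Rara, Rarb and Rarg, and the response gene Rarres1. The genes were taken by name, with every probe set that the array annotation gives to them, which made 13 probe sets for 10 of the 18193 genes on the array. The study measured RNA of 3 primary cultures from C57BL/6 donors of 6 to 8 weeks: retinal pigment epithelium (RPE), grown in DMEM with 20% serum, ciliary body pigment epithelium (CBPE), grown in RPMI 1640 with 10% serum, and iris pigment epithelium (IPE), grown in the same medium as CBPE. All 3 cultures were kept without serum overnight before RNA was extracted, and the labels name no genotype or agent beyond these. Each culture had 1 array, so no value has a replicate error and no test between cultures can be made. The number of animals behind a culture is not given in the sources used here. Since RPE alone was grown in DMEM and with 20% serum, its tissue, its medium and its serum cannot be told apart. The labels give 14 days of culture for RPE and CBPE and no time for IPE, so culture time may also differ in the comparisons with IPE.

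Retinoic acid is made from vitamin A in a pair of steps: retinol is oxidised to retinaldehyde, and retinaldehyde dehydrogenases of the ALDH1A group turn that into retinoic acid. The acid is carried in the cell by CRABP proteins, enters the nucleus and binds retinoic acid receptors (RAR), which sit on DNA with retinoid X receptors (RXR) and switch target genes on. CYP26 enzymes destroy it. In the eye the pathway patterns the optic cup and the tissue around it during development, while the retinal pigment epithelium of the adult handles retinaldehyde for vision in a separate cycle.

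Of the genes known to respond to retinoic acid, the members Rarb, Cyp26b1 and Rarres1 have a promoter window in the RefSeq table, and the 250 bases before their start sites are shown because these genes differed between the cultures in opposite directions. A direct repeat of the half-site bound by these receptors was searched for on either strand, with 1, 2 or 5 bases between both copies. The half-site AGGTCA was allowed 3 variant forms: GGGTCA, which changes the first base, AGTTCA, which changes the third base, and GGTTCA, which changes both of them. Capitals mark the half-sites of a match. The windows are on GRCm38.p6, at chr14:16575477-16575726 for Rarb, chr6:84593811-84594060 for Cyp26b1 and chr3:67515524-67515773 for Rarres1, all on the minus strand and written 5′ to 3′.
Rarb: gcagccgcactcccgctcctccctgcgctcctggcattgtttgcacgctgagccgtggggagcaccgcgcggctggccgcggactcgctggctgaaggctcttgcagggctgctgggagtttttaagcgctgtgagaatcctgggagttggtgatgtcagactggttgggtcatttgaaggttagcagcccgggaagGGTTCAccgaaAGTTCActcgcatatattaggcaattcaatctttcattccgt
Cyp26b1: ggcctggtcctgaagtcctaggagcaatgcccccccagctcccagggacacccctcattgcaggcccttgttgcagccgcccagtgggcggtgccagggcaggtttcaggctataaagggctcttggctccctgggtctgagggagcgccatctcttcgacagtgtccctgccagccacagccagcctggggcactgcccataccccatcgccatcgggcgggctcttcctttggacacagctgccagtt
Rarres1: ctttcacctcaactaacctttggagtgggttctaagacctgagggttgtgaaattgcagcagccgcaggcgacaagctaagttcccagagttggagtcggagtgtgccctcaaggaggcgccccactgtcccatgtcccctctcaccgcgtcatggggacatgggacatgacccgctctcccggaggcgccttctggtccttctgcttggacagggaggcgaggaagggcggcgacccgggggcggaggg

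The Rarb window held 1 match, with a spacer of 5 bases, from 53 to 37 bases before the start site. It is the arrangement known as the retinoic acid response element of this gene. Among 32817 promoter windows of the same length, 29 held such a repeat with a spacer of 5 bases, or 0.0884%, and 140 held one with any of the 3 spacers, or 0.427%. None of the other windows of the members held a match: the table covers 8 of the 10 genes with 13 windows, and 12 of these did not contain the searched letters. The Rarb window had a GC content of 58.0%, that of Cyp26b1 64.8% and that of Rarres1 62.4%, against a median of 52.4% over all windows. A match in letters is a description of the window and not a measured binding site.

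Signals are the deposited linear intensities. Each array was given a floor, the median of its own non-control probe sets, of 16.8 for RPE, 17.3 for CBPE and 14.5 for IPE, and signals under it were set to it before log2 differences were taken. A gene was counted as different when its signals on both arrays differed at least 2-fold and 1 of them was above the floor. A fold over a signal at the floor is a lower bound, and in CBPE it is taken over 20.2, the brightest signal of control transcripts absent from the samples. The only measurable error was the disagreement between bright probe sets of the same gene. Pooled over genes, the SD of that disagreement on the log2 scale came to 0.289 for RPE minus CBPE (1693 genes), 0.455 for RPE minus IPE (1773 genes) and 0.495 for CBPE minus IPE (1666 genes). Differences between animals, dishes and hybridisations are not part of it.

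The labelled tissues were checked against markers. The labels put cytokeratin-positive cells above 95% for RPE and CBPE and above 99% for IPE. Of 6 markers of simple epithelium, 4 were above the floor on each array. The brightest was the keratin gene Krt18, at 218.6 in RPE, 422.4 in CBPE and 144.1 in IPE. Krt8 was at 26.2, 95.3 and 17.4, Krt19 at 2.2, 25.8 and 39.9, and Krt7 at 21.9, 17.0 and 2.9. Epcam was at 49.6, 73.9 and 24.0, and Cdh1 was under the floor on every array. Of 9 pigment epithelium markers on the array, 7 were above the floor in RPE, 6 in CBPE and 8 in IPE. Of 8 markers of retinal pigment epithelium, 2 were above the floor in the RPE culture, Rdh5 at 84.3 and Rlbp1 at 17.3, while Rpe65, Best1, Ttr, Rgr, Lrat and Stra6 were under it, so the name RPE is used here as the label of the culture. All 10 fibroblast and mesenchyme markers were above the floor on all 3 arrays. Their summed signals were 39807.3 in RPE, 49352.5 in CBPE and 27795.9 in IPE, against 1620.8, 662.7 and 5122.3 for the pigment epithelium markers. Of 8 macrophage and leukocyte markers, 6 were above the floor in RPE, 7 in CBPE and 4 in IPE, with summed signals of 505, 2312 and 335.8. The IPE array also stood apart in its controls, with a ratio of 3′ to 5′ signal for Actb of 2.25 in RPE, 2.26 in CBPE and 1.5 in IPE.

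Of the 10 genes, 8 rest on 1 probe set, all except Aldh1a3 and Rarg, and no second one can check them. Of all 10, 7 were above the floor on all 3 arrays and 3 on some of them. By their signals, 5 were highest in CBPE, 3 in RPE and 2 in IPE, with Rara, near the floor throughout, among those of CBPE. In the plot of member signals, Crabp1 and Rarres1 have the widest spans among the genes that reached a signal of 100 on any array.

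**Figure D1:**
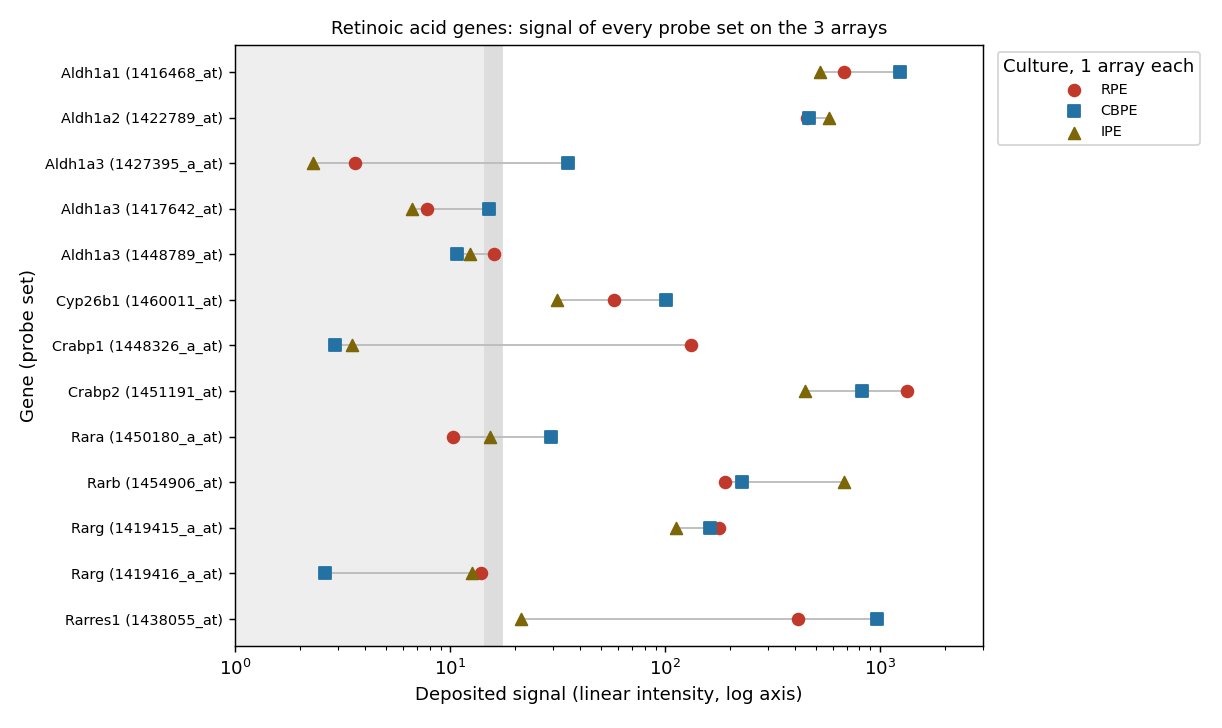
Deposited signal of each of the 13 probe sets (rows) on the RPE, CBPE and IPE arrays (circles, squares and triangles, 1 array each), on a log axis. Light grey covers signals under all 3 floors and dark grey the span of the floors from 14.5 to 17.3; Crabp1 is right of the grey in RPE alone, Rarb is farthest right in IPE, and Rarres1 at 21.4 in IPE is close to the grey.

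The 3 synthesis enzymes behaved differently. Aldh1a1, a retinaldehyde dehydrogenase found in the dorsal part of the developing retina, was measured by 1 probe set at 680.1 in RPE, 1240.7 in CBPE and 523.6 in IPE. CBPE was highest, and RPE and IPE differed by 0.38 on the log2 scale, less than the SD between probe sets. CBPE was 2.37-fold above IPE, and RPE minus CBPE was -0.87 on the log2 scale, below the 2-fold limit. With the medians of the arrays made equal, CBPE minus IPE was 0.99 and no longer reached 2-fold. In bulk RNA such as this, fewer cells of a type and less RNA per cell cannot be told apart.

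Aldh1a2, the main enzyme of retinoic acid synthesis in embryonic mesenchyme, was nearly level, at 455.5 in RPE, 468.4 in CBPE and 578.7 in IPE. Its log2 differences of -0.04, -0.35 and -0.31 for RPE minus CBPE, RPE minus IPE and CBPE minus IPE were all smaller than the SD between probe sets. Aldh1a3, the enzyme of the ventral developing retina and of the pigment layer in embryos, had 3 probe sets, and 8 of their 9 values were under the floor. The exception was 35.4 in CBPE on a probe set that gave 3.6 in RPE and 2.3 in IPE. That makes RPE at least 2.11-fold below CBPE, and CBPE at least 2.44-fold above IPE. The other probe sets of Aldh1a3 gave at most 15.9 in RPE, 15.1 in CBPE and 12.3 in IPE and show no difference, and 3 of 7 alternatives kept the 2-fold calls. They were lost with the mean of all probe sets and with a floor at the 60th percentile, and the gene was no longer measured with a fixed floor of 100 or without probe sets with a possible match to several transcripts.

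Cyp26b1, which encodes an enzyme that inactivates retinoic acid, was, like Aldh1a1, highest in CBPE. Its signal was 57.7 in RPE, 100.6 in CBPE and 31.2 in IPE. CBPE was 3.22-fold above IPE, RPE minus IPE was 0.89 and RPE minus CBPE was -0.80 on the log2 scale. All of its signals were dim, so with a fixed floor of 100 CBPE minus IPE was 0.01. After quantile normalization RPE minus IPE was 1.05, past the 2-fold limit.

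Both cellular retinoic acid binding proteins were highest in RPE. Crabp1 was the one member seen in a single culture by a wide margin, at 132.1 in RPE, 2.9 in CBPE and 3.5 in IPE. It was at least 6.54-fold above CBPE and at least 9.11-fold above IPE, and 10 of 12860 genes differed more than Crabp1 between RPE and CBPE in the same direction. With a fixed floor of 100 both log2 differences were 0.40 and no longer reached 2-fold. The gene rests on 1 probe set, whose name marks a possible match to several transcripts. Of 6 retinal neuron markers, none was above the floor in RPE, 1 was in CBPE and 2 were in IPE, with summed signals of 42.4, 42.6 and 62.1. Of 8 skeletal muscle markers, 7 were above the floor in RPE, 5 in CBPE and 2 in IPE, with summed signals of 1519, 1493 and 154.6. Much of the CBPE sum was Myh2, at 808.8 in RPE, 1362.8 in CBPE and 32.8 in IPE. Against CBPE, 4 of 7 measured muscle markers were at least 2-fold higher in RPE and none lower, beside 3.75% and 4.26% of all genes. The median of the 7 was 1.18 on the log2 scale, and Myl1 was 9.33-fold higher. The part of muscle markers in the Crabp1 signal was not tested.

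Crabp2, whose protein delivers retinoic acid to the receptors, was bright in all 3 cultures, at 1332.6 in RPE, 824.0 in CBPE and 447.0 in IPE. RPE was 2.98-fold above IPE. RPE minus CBPE, at 0.69, and CBPE minus IPE, at 0.88 on the log2 scale, each exceeded the SD between probe sets but stayed below 2-fold. Over 7 alternative settings RPE minus IPE ranged between 1.36 and 1.58.

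The 3 receptors differed in kind. Rarb, a receptor gene that is itself switched on by retinoic acid, was highest in IPE, at 189.7 in RPE, 227.0 in CBPE and 678.2 in IPE. RPE was 3.58-fold and CBPE 2.99-fold below IPE, whereas RPE and CBPE differed by -0.26 on the log2 scale, within the SD between probe sets. Under all 7 alternatives RPE minus IPE stayed between -2.05 and -1.75, and CBPE minus IPE between -1.83 and -1.51. No other member was below IPE by 2-fold or more in either culture. Both differences of Rarb share the single IPE array and rest on 1 probe set.

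Other lists also had higher sums in IPE than in the other cultures. The 9 pigment epithelium markers had summed signals of 1621 in RPE, 662.7 in CBPE and 5122 in IPE. The 6 measurable glial markers had 1432, 650.3 and 6671 in the same order, with 5, 3 and 6 of them above the floor. Most of that sum was Apoe, at 591.3, 292.4 and 3950.2, and Glul, at 743.2, 309.6 and 2558.2, while Slc1a3 was highest in RPE, at 47.2, 14.4 and 25.7. Melanocyte markers, which share Mlana, Dct and Pmel with the pigment list, had 417.4, 115.3 and 1903, with 3, 2 and 5 of 6 above the floor. Most of the IPE sum came from the shared Dct, at 1429.1. The markers not shared were dim: Ednrb at 7.5, 13.0 and 33.6, Sox10 at 6.1, 15.5 and 25.7, and Kit, highest in CBPE, at 0.7, 36.6 and 12.8. The part of these lists in the Rarb difference was not tested.

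Rarg, a receptor prominent in skin and cartilage, varied little, at 177.2 in RPE, 162.1 in CBPE and 112.5 in IPE. Its second probe set was under the floor on every array, at 13.9, 2.6 and 12.6. RPE minus IPE was 0.66, CBPE minus IPE 0.53 and RPE minus CBPE 0.13 on the log2 scale, and none reached 2-fold under any alternative that measured the gene. Rara, the receptor present in most tissues, lay near the floor, at 10.3 in RPE, 29.3 in CBPE and 15.2 in IPE. With 1 dim probe set, its order across the cultures cannot be read.

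Rarres1, a membrane protein gene named for its response to a synthetic retinoid in human skin, was the one member past the 2-fold limit in all 3 comparisons. On its 1 probe set it was at 414.8 in RPE, 963.3 in CBPE and 21.4 in IPE. RPE was 19.4-fold and CBPE 45.0-fold above IPE, and RPE was 2.32-fold below CBPE. The signal of 21.4 is close to the IPE floor of 14.5, which makes the folds over IPE imprecise: with a fixed floor of 100 the log2 differences were 2.05 and 3.27 in place of 4.28 and 5.49. In RPE minus IPE 18 genes, and in CBPE minus IPE 8 genes, differed more in the same direction. Macrophage and endothelial markers were also highest in CBPE, with summed signals for the 6 endothelial markers of 306.2 in RPE, 1458 in CBPE and 806.8 in IPE, of which 3, 6 and 2 were above the floor. In IPE, 745.1 of that sum came from Emcn. Summed signals of smooth muscle and pericyte markers followed the order of Rarres1, at 16591.8 in RPE, 25643.0 in CBPE and 9673.6 in IPE. Of these 6 markers, 6, 6 and 4 were above the floor. Rgs5 was at 1415.9 in RPE, 3973.5 in CBPE and 10.4 in IPE, and Cspg4 at 46.6, 119.5 and 6.2. Myh11 alone ran in the reverse order, brightest in IPE, at 40.0, 22.1 and 99.4. The part of these markers in the Rarres1 difference was not tested.

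Counted over the set, RPE against CBPE had 1 member at least 2-fold higher, Crabp1, and 2 lower, Aldh1a3 and Rarres1, of 10 measured. Over all genes, 3.75% were higher and 4.26% lower in that comparison. RPE against IPE had 3 of 9 measured members higher, Crabp1, Crabp2 and Rarres1, where 9.87% of all genes were higher, and 1 lower, Rarb, where 10.5% were lower. CBPE against IPE had 4 of 9 higher, Aldh1a1, Aldh1a3, Cyp26b1 and Rarres1, where 11.8% of all genes were higher, and 1 lower, Rarb, where 12.5% were lower. The median log2 difference of the measured members was -0.53, 0.66 and 0.95 in these comparisons, and that of all genes lay between 0 and 0.04. The 0.95 is the value of Rara, whose order cannot be read. In RPE minus IPE Rara entered at 0.14, a sign that comes from the floors, since its signal was 10.3 in RPE and 15.2 in IPE. In all, 7 of the 10 genes were 2-fold apart in at least 1 comparison, as were 31.4% of the 13345 genes above the floor on any array. They were chosen with earlier results of these data known, so the surplus over all genes is a description of the set.

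**Figure D2:**
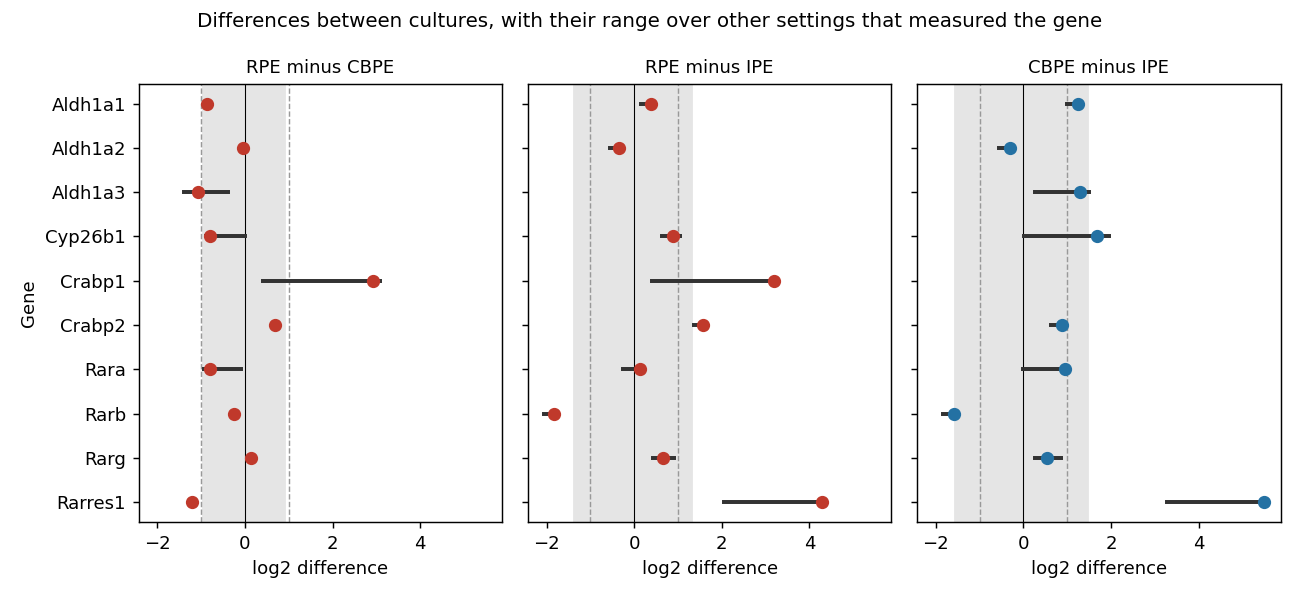
Log2 difference of each gene in RPE minus CBPE, RPE minus IPE and CBPE minus IPE (points), with the lowest and highest value over those of 7 other settings that still measured the gene (bars); dashed lines mark 2-fold and grey spans the central 90% of all measured genes. Rarb lies left of the grey in RPE minus IPE and at its left edge in CBPE minus IPE, where Rarres1 is far to the right in both, while Aldh1a2, Rara and Rarg stay inside the dashed lines throughout; a gene under both floors has no point.

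The other genes of the pathway were taken from 8 lists of 77 further genes, of which 69 were on the array under a single gene name. Of these, 9 of 49 measured were at least 2-fold apart between RPE and CBPE (18.4%, against 8.01% of all genes), 20 of 52 between RPE and IPE (38.5%, against 20.3%) and 18 of 51 between CBPE and IPE (35.3%, against 24.3%). Between RPE and IPE 6 were higher and 14 lower in RPE, and between CBPE and IPE 6 were higher and 12 lower in CBPE. The lists were written with earlier results in view, and several genes in them were already known to differ. Where a 2-fold gene had further probe sets above the floor, all of them went the same way in 19 of 23 cases, and in 24 cases there was no other probe set to compare.

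For the first step, the making of retinaldehyde, Rdh10 encodes the principal retinol dehydrogenase of embryos. It was at 206.4 in RPE, 378.1 in CBPE and 481.0 in IPE, and RPE was 2.33-fold below IPE. Dhrs3, which turns retinaldehyde back to retinol, was at 280.7, 521.7 and 395.5, with no pair 2-fold apart. The alcohol dehydrogenase genes Adh1 and Adh7, whose enzymes can oxidise retinol, were above background in RPE by a clear margin and in the others at or near the floor. Adh1 was at 77.6 in RPE, 1.1 in CBPE and 17.6 in IPE, and Adh7 at 74.8, 5.7 and 11.7. RPE was at least 3.84-fold and at least 3.70-fold above CBPE for this pair, although the second probe set of Adh7 gave 0.36 on the log2 scale. Of the 11 oxidoreductases measured in RPE against CBPE, 2 were higher in RPE and none lower, beside 3.75% and 4.26% of all genes.

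Among the aldehyde dehydrogenases and oxidases outside the set, Aldh1a7, a close copy of Aldh1a1 in rodents, was also highest in CBPE. It was at 99.0 in RPE, 274.9 in CBPE and 30.8 in IPE, so CBPE was 8.93-fold above IPE. Whether the probes of these near-identical genes share transcripts was not tested. Aldh3a1, known from the cornea, was at 149.9 in RPE, 37.7 in CBPE and 8.3 in IPE, with RPE at least 10.3-fold above IPE. Aox3, an aldehyde oxidase gene, went the other way, at 20.2 in RPE, 27.5 in CBPE and 1000.0 in IPE. Aldh1l1, an enzyme of folate metabolism, was at 41.9, 173.7 and 66.7, with RPE 4.15-fold below CBPE.

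The carriers of vitamin A in blood and at the cell surface include brighter and dim genes. Rbp4, the retinol carrier of plasma, was at 93.3 in RPE, 44.1 in CBPE and 174.4 in IPE, and CBPE was 3.95-fold below IPE. Ttr, which encodes the protein that binds Rbp4 in plasma, passed the floor only in CBPE, at 9.0 in RPE, 41.1 in CBPE and 0.4 in IPE. Scarb1, a lipoprotein receptor gene that also takes up carotenoids, was at 142.7, 161.5 and 310.1, with RPE 2.17-fold below IPE. Lrp2, an endocytic receptor that takes up retinol carriers, was above the floor in IPE alone, at 6.9 in RPE, 9.5 in CBPE and 50.9 in IPE. Stra6, the cell surface receptor for the plasma carrier and a retinoic acid target, reached 1.4 in RPE, 10.0 in CBPE and 21.9 in IPE. The hydroxylase gene Cyp26a1, among the best known targets of retinoic acid, was at 0.7 in RPE, 7.3 in CBPE and 15.3 in IPE, so of the CYP26 genes measured Cyp26b1 alone was above the floor on all 3 arrays.

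None of the partner receptors RXR was 2-fold apart. Rxrb was nearly level, at 155.3 in RPE, 137.3 in CBPE and 150.7 in IPE. Rxra was at 112.3, 114.4 and 196.4, and its log2 differences of -0.81 for RPE minus IPE and -0.78 for CBPE minus IPE exceeded the SD between probe sets. Rxrg was above the floor in IPE alone, at 10.7, 2.5 and 22.7. The orphan receptor genes Nr2f1 and Nr2f2, whose proteins can bind retinoic acid response elements and are themselves retinoic acid targets in development, were highest in IPE. Nr2f1 was at 182.7 in RPE, 142.4 in CBPE and 1893.5 in IPE. Nr2f2 was at 202.3, 284.4 and 628.5, with 1 of its 4 other probe sets above the floor going the opposite way in RPE minus IPE. Fabp5, reported to carry retinoic acid to another nuclear receptor, PPARδ, was at 859.6 in RPE, 828.4 in CBPE and 407.1 in IPE. Its partner gene Ppard ran in the other direction, at 31.6, 57.4 and 76.2, and RPE was 2.41-fold below IPE. Pparg, a related receptor of fat cells, was at 74.3, 61.4 and 11.6, with RPE at least 5.12-fold above IPE.

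Several coregulators that bind these receptors had their highest signal in IPE. Of 7 measured, RPE was 2-fold or more below IPE for 3 and CBPE for 4, neither was above it for any, and 10.5% and 12.5% of all genes were lower in these comparisons. The medians of the 7 were -0.87 and -1.02 on the log2 scale. Kat2b, a histone acetyltransferase, was at 322.4 in RPE, 301.4 in CBPE and 873.8 in IPE, and Ep300, another, at 189.7, 181.0 and 429.2. Nrip1, a corepressor induced by retinoic acid, was at 268.7, 193.4 and 542.3, but 2 of its 5 other probe sets above the floor did not go the same way in RPE minus IPE. Ncoa1, a coactivator, was at 136.4, 122.7 and 249.3, with CBPE 2.03-fold below IPE. None of the 7 was 2-fold apart between RPE and CBPE.

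Genes known to respond to retinoic acid were mostly lower in RPE than in CBPE and mixed in the comparisons with IPE. Of 14 measured in RPE against CBPE, 12 had a log2 difference below 0, with a median of -0.64, and 3 were at least 2-fold lower and none higher, where 4.26% of all genes were lower and 3.75% higher. Among the 12 was Stra8, at -0.01, though its signal was 17.2 in RPE and 5.6 in CBPE. Its sign comes from the CBPE floor of 17.3. Of 16 in RPE against IPE, 2 were higher and 4 lower, beside 9.87% and 10.5% of all genes, with a median of -0.36. Of 15 in CBPE against IPE, 2 were higher and 3 lower, beside 11.8% and 12.5%, with a median of 0.24. In both comparisons with IPE, Cyp26a1 had a difference above 0, of 0.13 and 0.18, though it was brightest in IPE at 15.3. That sign comes from the lower IPE floor. The members Crabp2, Rarres1, Rarb and Cyp26b1 are in this list. On the side of Rarb were Tgm2, a transglutaminase gene, at 454.9 in RPE, 839.3 in CBPE and 1484.9 in IPE, and the homeobox genes Meis1, at 4.4, 24.3 and 119.3, and Meis2, at 40.5, 30.7 and 144.5. All 4 other probe sets of Tgm2 above the floor had RPE at least 2-fold below IPE, while 1 of 2 for Meis1 went the opposite way. Rarres2, the gene of the adipokine chemerin, was at 225.7 in RPE, 603.0 in CBPE and 305.5 in IPE, highest in the same culture as Rarres1 but not lowest in IPE. Dusp6, a phosphatase gene of the ERK pathway, was at 102.1, 235.1 and 128.3, with RPE 2.30-fold below CBPE.

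**Figure D3:**
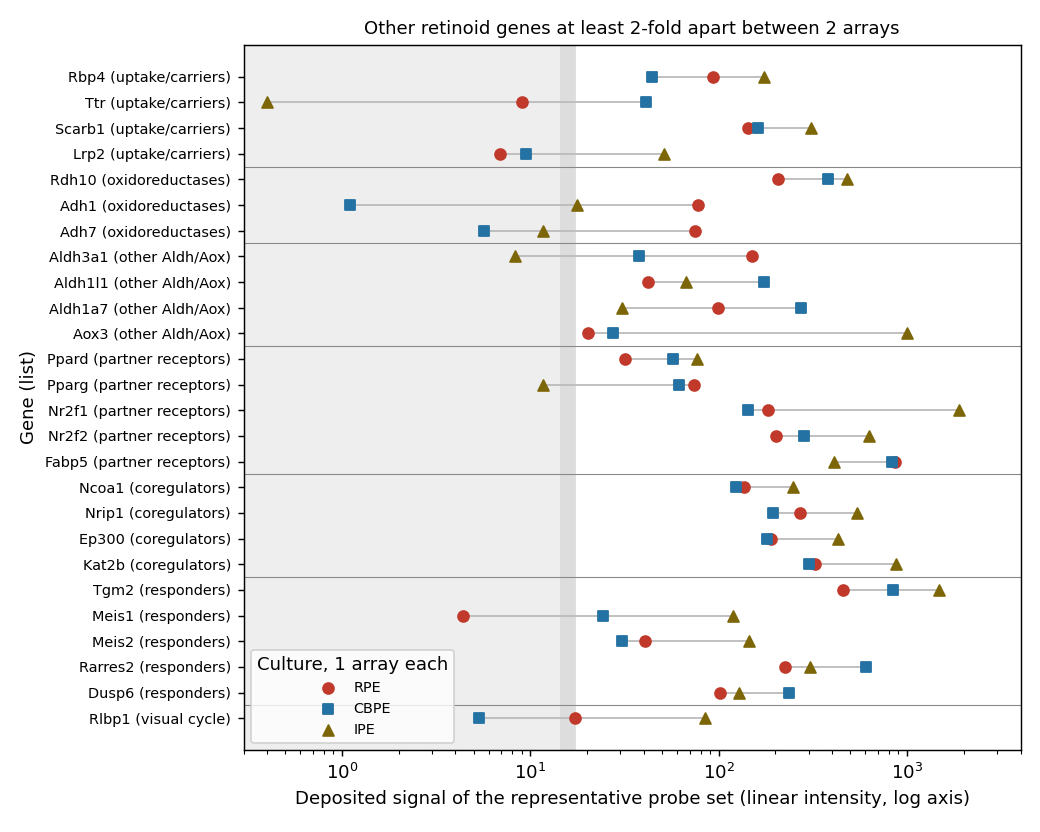
Signal of the representative probe set of each pathway gene outside the set that was at least 2-fold apart between arrays and at more than 2 times the floor on the brighter one, grouped by list, on a log axis (circles RPE, squares CBPE, triangles IPE, 1 array each, grey as for the member signals). The triangle is rightmost for the 4 coregulators, for Nr2f1 and Nr2f2 and for Tgm2, Meis1 and Meis2, and the circle for Adh1, Adh7 and Aldh3a1.

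For each member above the floor on all arrays and 2-fold apart in a comparison, the genes with the most similar set of 3 log2 differences were looked up among 10237 genes. Rarb was nearest to Ago3, H6pd and Gm10336, with largest gaps of 0.059, 0.085 and 0.098. Crabp2 was nearest to Cybrd1, Nthl1 and Maged2, and Cyp26b1 to Spag5, Gnpnat1 and Usp18, with gaps of at most 0.051. Aldh1a1 was nearest to Ubald1, Scx and Atp8b1, with gaps of at most 0.050. For these 4 genes between 20 and 53 others lay within 0.2, so a likeness over 3 arrays picks out little. Rarres1 had 1 gene within 0.2, the matrix metalloproteinase gene Mmp3, at 2565.1 in RPE, 6095.4 in CBPE and 132.7 in IPE, a gap of 0.033.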

How the data were processed

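RNA of 3 primary cultures was measured on 1 biotin-labelled array each. As deposited, the table gives a linear intensity for 45101 probe sets, 64 of them controls, made with software not given in the sources used here. Trimmed by 2%, each array averaged 100.001, the mark of a common scaling before deposit, and that scale was kept. Array signals have no counting depth, and 1 array per culture limits the precision.

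Probe sets were named through the platform annotation of 2016, updated to RefSeq symbols of GRCm38.p6: 34958 listed probe sets had 1 gene, 932 had several and were not used, and 9160 were unlisted. The brightest probe set represented a gene, by mean log2 signal. The members, lists and rules were chosen with earlier results of these data known. Text names all members, list genes at least 2-fold apart with a signal above 2 times the floor, up to 4 of the brightest others per list, and the 3 nearest genes in pattern. Stra8 is named because its sign depends on the floors. Listed genes without a named probe set were not analysed here. Promoter sequences are RefSeq's. The 2-fold counting was run on simulated data, with changes put into bright genes only and less noise than the SD between probe sets. That run does not cover dim members. Python 3.11.15, numpy 2.4.6, pandas 2.3.3 and matplotlib 3.10.9 were used. Scaling, floor and choice of probe set were varied in 7 alternatives.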

Additional observations from a re-analysis of the deposited data

How the results depend on the processing

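Over 7 alternatives, 159 of 179 recomputed member differences kept their side of the 2-fold limit and moved by less than the SD between probe sets, 8 lost the limit, 1 gained it, 11 moved by more, and none past the limit turned its direction. A further 6 values past the limit were no longer measured, those of Aldh1a3 with the fixed floor of 100 and those of Aldh1a3 and Crabp1 without probe sets that can match more than 1 transcript. In RPE against CBPE, the count of higher members, 1 as deposited, was 0 with a fixed floor of 100 and 0 once probe sets with a possible match to several transcripts were left out, among them that of Crabp1. The count of lower members, 2 as deposited, was 1 with the floor at the 60th percentile, with the fixed floor, with the mean of all probe sets and without those probe sets. In CBPE against IPE, the count of higher members, 4 as deposited, was 2 with the fixed floor. The share of all genes 2-fold apart between RPE and CBPE was 3.83% with the fixed floor and 4.93% with the mean of probe sets, against 8.01%. With equal medians the median of all genes was -0.20 for RPE minus IPE and -0.22 for CBPE minus IPE, and the share of higher among called genes was 28.9% and 28.5%, against 48.5% in both as deposited. Quantile normalization moved both the other way, with medians of 0.08 and 0.13 and shares of 57.9% and 58.3%. Of 399 list counts, 310 stayed within 1.5 times. No paired analysis was possible because each culture has 1 array.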

Other observations

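Genes of the visual cycle, which regenerates the light-sensitive retinaldehyde of photoreceptors, were in part under the floor in all 3 cultures. Rpe65, the isomerase of the cycle, was at 2.4 in RPE, 1.0 in CBPE and 1.0 in IPE, and Lrat, which stores retinol as esters, at 0.6, 12.1 and 2.7, all of them under the floors. Rlbp1, the retinaldehyde carrier of the retinal pigment epithelium and of Müller glia, was at 17.3 in RPE, 5.3 in CBPE and 84.0 in IPE, so RPE was 4.86-fold below IPE, a fold that rests on a signal close to the floor of 16.8. The 11-cis retinol dehydrogenase gene Rdh5 was at 84.3 in RPE, 143.9 in CBPE and 124.3 in IPE, and Rdh11, a broadly expressed retinol dehydrogenase gene, at 135.7, 117.6 and 120.2, with no pair 2-fold apart.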
